A study of Mus musculus with 28 samples.

Results

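The mitochondrial ribosomal protein genes were taken as every gene whose symbol is Mrpl or Mrps followed by a digit and whose level reached 1 FPKM in at least 3 libraries. FPKM is the number of sequenced fragments scaled by transcript length and by library size, so it sets genes of different length on 1 scale. Of the 17792 genes in the table, 78 carried such a symbol, all 78 passed the filter, and each of the 78 was above 1 FPKM in all 28 libraries. The same filter left 11213 genes, over which every test below was run. The rule for members used symbols and a minimum level and no response to treatment or genotype. The family itself was chosen with earlier results of these data known.

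The 28 libraries came from livers of C57BL/6 mice that were either macrophage-specific Pparg knockouts (KO) or wild type (WT) and that were gavaged with DEHP, a phthalate plasticizer, at 625 mg per kg, or with 0.5% CMC as the control agent, for 90 or 28 days. At 90 days there were 4 libraries in each of the groups KO DEHP, KO CMC, WT DEHP and WT CMC, and at 28 days 3 libraries in each. The labels call all mice male, of 20 to 30 g, with 12 mice in a group. They leave unstated how mice map to libraries, so p-values measure the spread between these libraries. The labels do not name the Cre line or promoter behind the deletion, which KO DEHP and KO CMC mice share.

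The targeted gene could not check the genotype labels in whole liver: Pparg ranged over 1.51 to 6.69 FPKM in KO libraries and 1.51 to 7.65 FPKM in WT libraries, and limma called it in none of the 4 KO against WT comparisons. Lyz2, a macrophage lysozyme gene, ranged over 0.73 to 2.67 FPKM in KO libraries and 38.5 to 120 FPKM in WT libraries. Depth, estimated from the steps between low FPKM values, ran from 9.19 to 14.77 M fragments over the libraries, with 68.2% to 76.5% of the values used within 0.15 of a whole step. The 2 times differed in sex-linked transcripts. Xist, expressed from the inactive X chromosome, was at 0.02 FPKM or less in all 16 libraries of 90 days. In all 12 libraries of 28 days it was at 26.7 to 41.0 FPKM. Ddx3y, on the Y chromosome, was at 6.27 to 12.96 FPKM in the 16 libraries and at 0 in the 12. Kdm5d, Uty and Eif2s3y, also on the Y chromosome, were likewise detected in the 16 and at 0 in the 12. The libraries of 28 days thus show the female pattern and those of 90 days the male pattern, while the labels call all mice male. In 5 libraries of 90 days (KO DEHP replicates 1, 2 and 3, WT DEHP replicate 4 and WT CMC replicate 4) the 17 exocrine pancreas markers summed to over 1000 FPKM, and in 3 libraries (KO DEHP 90 days replicate 4, WT DEHP 28 days replicate 5 and WT CMC 28 days replicate 7) the 12 endothelial markers summed to under 100 FPKM. The 8 hepatocyte markers were detected in every library and summed to 33183 FPKM or more.

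Mitochondria keep a small genome and a ribosome of their own, the mitoribosome, which translates the mitochondrial messages for core subunits of the oxidative phosphorylation chain. Its RNAs come from the mitochondrial genome, while its proteins are encoded in the nucleus, made in the cytosol and imported, so that the 2 genomes must be expressed together. Some of these proteins descend from those of bacterial ribosomes, and others were added in the mitochondrial lineage. Liver is rich in mitochondria, and agents that activate PPARalpha in rodents enlarge its peroxisomal and mitochondrial capacity for fatty acid oxidation. Of the 78 members, 30 belong to the large subunit and have a bacterial counterpart, 21 belong to the large subunit and are specific to mitochondria, 16 belong to the small subunit and have a bacterial counterpart, and 10 belong to the small subunit and are specific to mitochondria. The last member, Mrps36, keeps a ribosomal name but its product is now placed in the 2-oxoglutarate dehydrogenase complex.

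Promoter windows are shown for 4 of the members that were called higher under DEHP in at least 3 of the 4 DEHP comparisons described below, so that a reader can see which motifs do and do not occur near members that moved together. The windows are RefSeq sequence (GRCm38.p6) running from 250 bases before to 50 bases after an annotated transcription start, which need not be the gene's outermost one. Of the 78 members, 69 had a window. Capitals mark the letters of a searched motif on either strand. Mrpl9 (chr3:94443086-94443385, + strand) holds a match to the NRF1 motif on both strands, overlapping, 27 and 26 bases before the start. Mrpl33 (chr5:31613701-31614000, + strand) holds an NRF1 match 11 bases before the start and a GABPA match 3 bases before it. Mrps27 (chr13:99344536-99344835, + strand) holds a GABPA match 48 bases before the start and a YY1 match 14 bases after it, and Mrpl45 (chr11:97315466-97315765, + strand) holds no match. The Mrpl45 window lies inside the gene, whose first annotated base is 97314923, so its outermost start is not covered. Some other windows, such as those of Mrps23 and Mrpl48, also lie inside the gene. The motif counts below hold for the windows as they are. Among the other members called in at least 3 comparisons, Mrpl30, Mrps17 and Mrps36 had windows with no match, which are not shown. Mrpl54, Mrps35 and Mrpl13 had no window. The display thus favours windows with a match.
Mrpl9: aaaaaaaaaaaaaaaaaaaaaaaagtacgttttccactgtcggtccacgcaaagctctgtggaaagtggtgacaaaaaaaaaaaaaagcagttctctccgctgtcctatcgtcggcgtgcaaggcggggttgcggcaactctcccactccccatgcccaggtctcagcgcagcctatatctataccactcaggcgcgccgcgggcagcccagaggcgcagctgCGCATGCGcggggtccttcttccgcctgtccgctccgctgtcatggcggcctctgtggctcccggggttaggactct
Mrpl33: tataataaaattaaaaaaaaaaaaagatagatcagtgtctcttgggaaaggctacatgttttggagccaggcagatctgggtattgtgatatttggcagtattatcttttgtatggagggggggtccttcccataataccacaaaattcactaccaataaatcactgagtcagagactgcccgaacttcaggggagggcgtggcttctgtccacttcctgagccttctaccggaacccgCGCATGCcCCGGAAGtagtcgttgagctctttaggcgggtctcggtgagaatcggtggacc
Mrps27: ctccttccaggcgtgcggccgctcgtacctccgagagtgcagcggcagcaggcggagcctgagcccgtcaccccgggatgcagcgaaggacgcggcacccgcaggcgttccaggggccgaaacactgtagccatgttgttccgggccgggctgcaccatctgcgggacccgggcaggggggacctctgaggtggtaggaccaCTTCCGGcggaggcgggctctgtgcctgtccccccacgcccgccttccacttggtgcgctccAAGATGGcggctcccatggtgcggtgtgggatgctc
Mrpl45: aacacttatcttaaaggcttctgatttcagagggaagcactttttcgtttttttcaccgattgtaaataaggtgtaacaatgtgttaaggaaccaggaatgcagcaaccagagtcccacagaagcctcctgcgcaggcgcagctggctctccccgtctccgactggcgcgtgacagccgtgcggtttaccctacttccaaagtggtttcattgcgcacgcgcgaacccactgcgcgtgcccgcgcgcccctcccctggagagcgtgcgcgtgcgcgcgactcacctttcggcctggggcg

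NRF1 and GABPA are factors known for controlling nuclear genes of mitochondria, YY1 is a further factor at many such promoters, and PPARs bind pairs of a short repeat. The GABPA motif CCGGAAG was present in 26 of the 69 member windows (37.7%), in 20.5% of the windows of the 8998 tested genes that had one and in 8.86% of all 32851 windows. The NRF1 motif GCATGCG was in 8 member windows (11.6%), against 7.24% of tested genes and 3.58% of all windows. The YY1 motif AAGATGG was in 13 (18.8%), against 8.80% and 6.34%. The MYC motif CACGTG, which reads the same on both strands, was in 5 (7.25%), against 12.1% and 7.15%. The PPAR motif, a pair of AGGTCA copies with any 1 base between them, was in 0 of 69, against 0.067% and 0.040%, which says only that these letters are not in these windows. Among the 35 members with a window that were called higher in at least 1 DEHP comparison, 15 held the GABPA motif and 6 the NRF1 motif, and among the 34 called in none, 11 and 2 did. The YY1 motif was in 7 of the 35 and 6 of the 34, the MYC motif in 3 and 2, and the PPAR motif in 0 and 0. No difference between the 2 sets was tested. Both strands were searched, and a match is a description of letters, not of binding.

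The genes were short and often shared a start region with a neighbour. Their longest annotated messages had a median of 1302 bases and 5 exons, against 2986.5 bases and 9 exons for the tested genes found in the annotation (GENCODE M21, GRCm38). By the starts searched, a protein-coding gene on the opposite strand started within 1000 bases upstream of 18 members (23.1%), against 10.3% of tested genes. The 18 leave out Mrpl46 and Mrps11, neighbours on opposite strands of chromosome 7. In RefSeq Mrpl46 starts at base 78783089 and Mrps11 at base 78783131, so 18 is not a full count. The same search gave the 10.3%. Mrpl54 lay 26 bases from Apba3, Mrps18c 29 bases from Helq, Mrps12 172 bases from Sars2, which encodes the mitochondrial seryl-tRNA synthetase, and Mrpl49 59 bases from Fau, a cytosolic ribosomal protein gene. Members sat on 17 chromosomes, with 11 on chromosome 11 and 8 on chromosome 17. Exons of 26 members overlapped those of another annotated gene. For 17 members this was a protein-coding gene, as for Mrpl13 (Mtbp) and Mrpl9 (Oaz3). Mrpl33 overlapped the processed transcript Gm43809 on the same strand, and Mrps27 overlapped 6430562O15Rik on the opposite strand. Named pseudogenes were annotated for Mrpl23, Mrpl48 and Mrps36. The sources used here do not say whether counting used strand, so reads of such members may be shared. Mrpl54, Mrpl45, Mrps35, Mrpl30, Mrpl16, Mrpl20 and Mrps28, which recur below, overlapped no annotated exon of another gene.

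Levels of the members spanned a wide range. Mrpl52, of the mitochondria-specific large-subunit set, averaged 120 FPKM over the 28 libraries, Mrpl12, whose product also binds the mitochondrial RNA polymerase, averaged 117 FPKM, and Mrpl30 averaged 80.6 FPKM. The lowest 3 were Mrpl19 at 2.47 FPKM, Mrps25 at 3.88 FPKM and Mrpl35 at 5.23 FPKM. Class medians were close: 28.4 FPKM for large-subunit members with a bacterial counterpart, 21.7 FPKM for those specific to mitochondria, 25.9 FPKM for small-subunit members with a bacterial counterpart and 19.7 FPKM for those specific to mitochondria. FPKM of messages this short depend on the fragment lengths assumed by the authors' software, so an order among neighbours is only approximate.

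**Figure D1:**
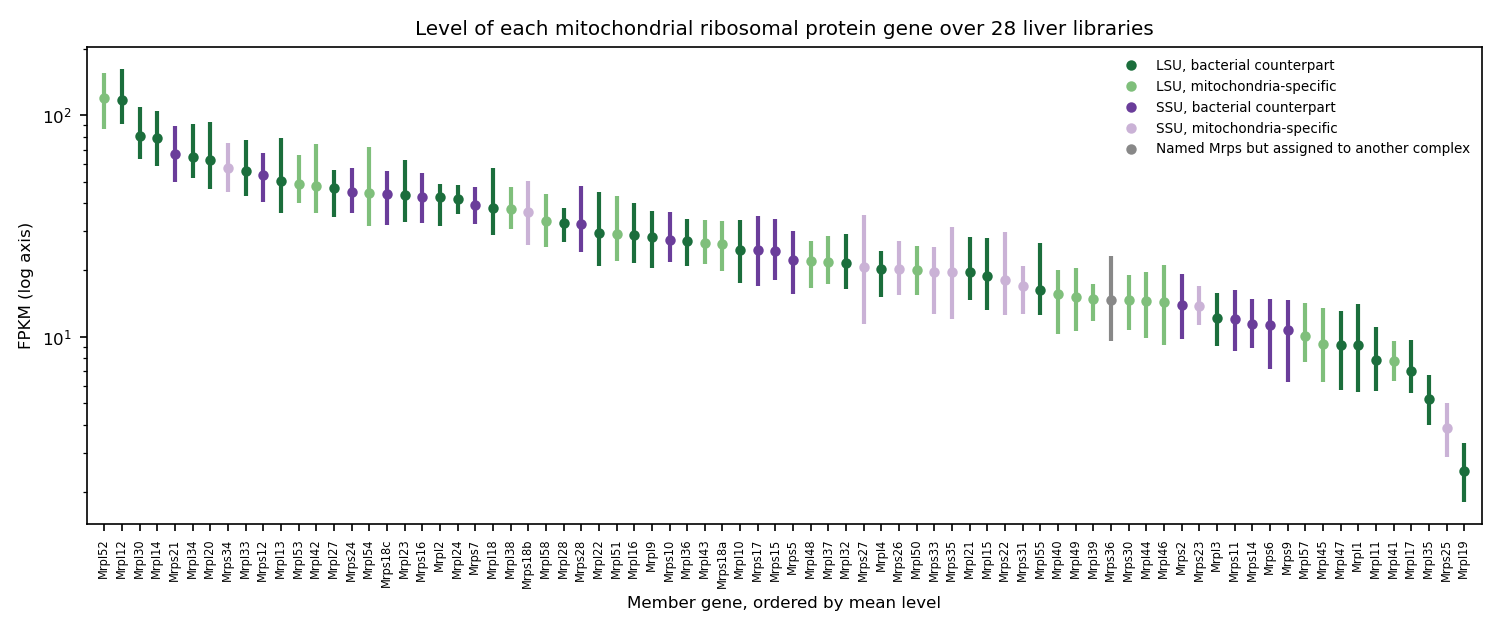
Mean level (point) and range over the 28 libraries (line) of each of the 78 members in FPKM on a log axis, ordered by mean and coloured by subunit (LSU, large; SSU, small) and by presence of a bacterial counterpart. Levels run from 120 FPKM for Mrpl52 to 2.47 FPKM for Mrpl19, and the classes are interleaved.

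The first question was whether DEHP altered these genes, and it was put separately in each genotype and time, in 4 comparisons that share no library. Many members were higher with DEHP than with CMC and none was called lower. limma on log2(FPKM + 1), with Benjamini-Hochberg adjustment over the 11213 genes and a threshold of 0.05, called 6 members higher in KO and 14 higher in WT livers at 90 days, and 32 higher in KO and 24 higher in WT livers at 28 days. The share of all tested genes called higher was 4.47% (KO, 90 days), 4.96% (WT, 90 days), 11.6% (KO, 28 days) and 10.3% (WT, 28 days), against 7.69%, 17.9%, 41.0% and 30.8% of the members in that order. The members' share was nearest to that of all genes in KO livers at 90 days. The share of all tested genes called lower was 1.18%, 1.84%, 8.77% and 6.17% in the same order.

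The sizes were small and the direction was widely shared. The median member log2 fold change, DEHP over CMC, was 0.12 in KO and 0.18 in WT livers at 90 days, and 0.28 in KO and 0.24 in WT livers at 28 days, where the medians of all tested genes were 0.03, -0.01, -0.04 and -0.01. The log2 fold change was positive for 62 members in KO and 72 in WT livers at 90 days, and for 70 in KO and 71 in WT livers at 28 days, against 56.7%, 47.1%, 44.5% and 48.4% of all tested genes. The smallest and largest member values were -0.16 and 0.50 in KO livers at 90 days, -0.11 and 0.43 in WT livers at 90 days, -0.13 and 0.81 in KO livers at 28 days, and -0.18 and 0.59 in WT livers at 28 days. Relative to all genes the members thus formed a narrow band on the positive side, without the long tails of the whole transcriptome, as the cumulative curves show. After each library was scaled to its upper quartile, 5 and 9 members were called higher in KO and WT livers at 90 days and 25 and 18 at 28 days, and none lower. The share of all tested genes called higher was then 3.44% (KO) and 4.82% (WT) at 90 days and 10.9% (KO) and 9.36% (WT) at 28 days.

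**Figure D2:**
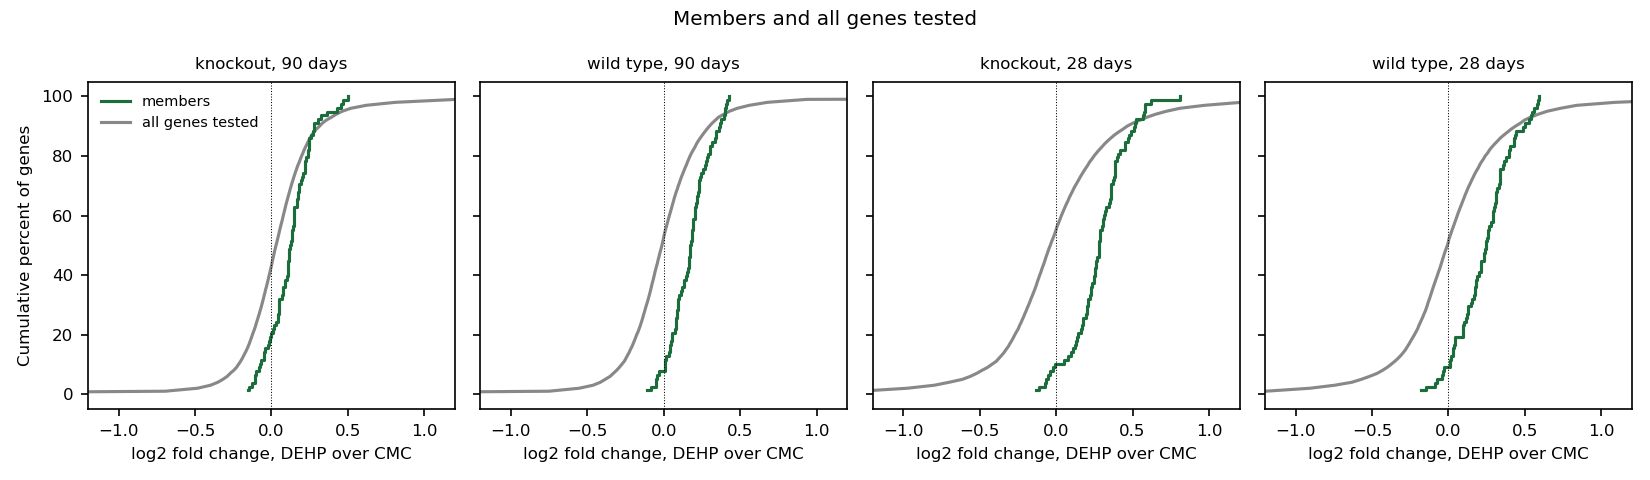
Cumulative percent of genes (vertical axis) by log2 fold change of FPKM + 1, DEHP over CMC (horizontal axis), for the 78 members (green) and for all 11213 tested genes (grey) in the 4 genotype and time strata. The member curves lie right of the grey ones through the middle of each panel, with member medians of 0.12, 0.18, 0.28 and 0.24 from left to right.

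Without regard to a model, the DEHP libraries all lay above the CMC libraries for 12 members in KO and 16 in WT livers at 90 days, and for 52 in KO and 38 in WT livers at 28 days, and lay all below for none. Among all tested genes the share lying wholly above was 8.89%, 7.07%, 19.2% and 15.4% in that order, and the share lying wholly below was 3.46%, 4.58%, 22.5% and 11%. The summed level of the 78 members was 2261 to 2382 FPKM in KO DEHP and 2044 to 2295 FPKM in KO CMC livers at 90 days, and 2154 to 2484 FPKM in WT DEHP and 1972 to 2173 FPKM in WT CMC livers at 90 days. Both pairs of groups overlapped. At 28 days it was 2635 to 3048 FPKM in KO DEHP and 2263 to 2368 FPKM in KO CMC livers, and 2686 to 2836 FPKM in WT DEHP and 2215 to 2354 FPKM in WT CMC livers. Neither pair overlapped. Markers of cell types moved in the same comparisons. Of 8 hepatocyte markers, 2 fell in KO and 1 in WT livers at 90 days, and 7 fell in KO and 5 in WT livers at 28 days. Of 9 stellate cell markers, 1 fell in KO and 0 in WT livers at 90 days, and 4 fell in KO and 5 in WT livers at 28 days. In KO livers at 90 days, 16 of 17 exocrine pancreas markers and 3 of 3 tested adipocyte markers rose. No Kupffer cell, endothelial or erythroid marker was called in the 4 comparisons. The part of these markers in the result was not tested. In bulk tissue, fewer cells of a type and less RNA per cell cannot be told apart. Library composition differed with DEHP as well. At 90 days major urinary protein genes took 9.32% to 17.3% of summed FPKM in KO DEHP and 19.6% to 28.2% in KO CMC livers. In WT livers these ranges were 10.5% to 26.9% and 13.1% to 29.9%, and they overlapped. At 28 days they were 1.01% to 2.29% with DEHP and 2.64% to 3.79% with CMC in KO livers. In WT livers of 28 days they were 0.461% to 1.77% and 2.03% to 5.06%. The part of composition was not tested.

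Mrpl54, Mrpl45 and Mrps35 were called higher in all 4 DEHP comparisons, among 195 of the 11213 tested genes. Mrpl54 is a mitochondria-specific protein of the large subunit. At 90 days in KO livers it stood at 44.4, 48.8, 50.2 and 49.98 FPKM with DEHP and at 33.5, 38.8, 32.2 and 38.6 FPKM with CMC. At 90 days in WT livers it stood at 46.1, 35.5, 51.3 and 52.0 FPKM with DEHP and at 33.7, 36.1, 36.4 and 31.7 FPKM with CMC. The KO groups did not overlap, while 1 WT DEHP library, replicate 2, fell among the CMC libraries. At 28 days it stood at 60.3, 71.7 and 61.7 FPKM in KO DEHP and 37.9, 37.9 and 33.4 FPKM in KO CMC livers. The WT values of 28 days were 59.0, 55.7 and 59.4 FPKM with DEHP and 36.8, 38.8 and 38.9 FPKM with CMC. Every DEHP library of 28 days was above every CMC library. The log2 fold changes were 0.43 ± 0.10 (SE; limma adjusted p = 0.00868) in KO and 0.40 ± 0.10 (adjusted p = 0.011) in WT livers at 90 days, and 0.81 ± 0.11 (adjusted p = 5.8e-06) in KO and 0.59 ± 0.11 (adjusted p = 0.000352) in WT livers at 28 days. The value of 0.81, 1.75-fold on the FPKM + 1 scale, was the largest of any member in any of the 4 comparisons. In WT livers at 90 days the call was lost without WT DEHP replicate 3 (adjusted p = 0.0515) or replicate 4 (adjusted p = 0.0608).

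Mrpl45, a mitochondria-specific large-subunit protein at the exit of the peptide tunnel that anchors the ribosome to the inner membrane, was a low-level member. Its level in KO livers at 90 days was 8.54, 9.53, 10.5 and 10.2 FPKM with DEHP and 7.01, 6.51, 6.28 and 7.06 FPKM with CMC. The WT values at 90 days were 9.08, 9.46, 9.28 and 8.92 FPKM with DEHP and 7.33, 8.42, 7.25 and 6.64 FPKM with CMC. No DEHP library of either genotype reached down to a CMC library. At 28 days it stood at 11.3, 12.6 and 10.9 FPKM in KO DEHP and 9.56, 10.1 and 8.68 FPKM in KO CMC livers. It stood at 13.5, 12.9 and 12.3 FPKM in WT DEHP and 8.26, 9.51 and 9.07 FPKM in WT CMC livers. The groups of 28 days did not overlap either. The log2 fold changes were 0.47 ± 0.08 (SE; adjusted p = 0.000521) in KO and 0.28 ± 0.08 (adjusted p = 0.0265) in WT livers at 90 days, and 0.27 ± 0.09 (adjusted p = 0.032) in KO and 0.48 ± 0.09 (adjusted p = 0.000302) in WT livers at 28 days. With upper quartile scaling, the calls in WT livers at 90 days (adjusted p = 0.077) and in KO livers at 28 days (adjusted p = 0.11) were lost.

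Mrps35 is a mitochondria-specific protein of the small subunit. Its level in KO livers of 90 days was 21.1, 18.1, 20.5 and 19.8 FPKM with DEHP and 14.2, 15.02, 14.3 and 17.5 FPKM with CMC. The WT levels at 90 days were 20.5, 17.6, 19.9 and 20.6 FPKM with DEHP and 15.8, 12.0, 13.7 and 17.5 FPKM with CMC. The groups did not overlap in either genotype, although WT DEHP replicate 2 was only just above WT CMC replicate 4. At 28 days it stood at 31.2, 25.3 and 22.6 FPKM in KO DEHP and 19.6, 20.2 and 20.3 FPKM in KO CMC livers. It stood at 24.2, 27.7 and 24.4 FPKM in WT DEHP and 18.6, 17.6 and 19.7 FPKM in WT CMC livers, again without overlap. The log2 fold changes lay between 0.36 and 0.43, with adjusted p of 0.0326 in KO and 0.0152 in WT livers at 90 days, and 0.0241 in KO and 0.0118 in WT livers at 28 days, and all 4 calls were kept under upper quartile scaling. The call in KO livers at 90 days was lost without any 1 of KO DEHP replicates 1, 3 and 4 and KO CMC replicates 1, 2 and 3 (adjusted p 0.0658 to 0.110), and that in WT livers at 90 days without any 1 of WT DEHP replicate 4 and WT CMC replicates 2 and 3 (adjusted p 0.0538 to 0.0817).

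**Figure D3:**
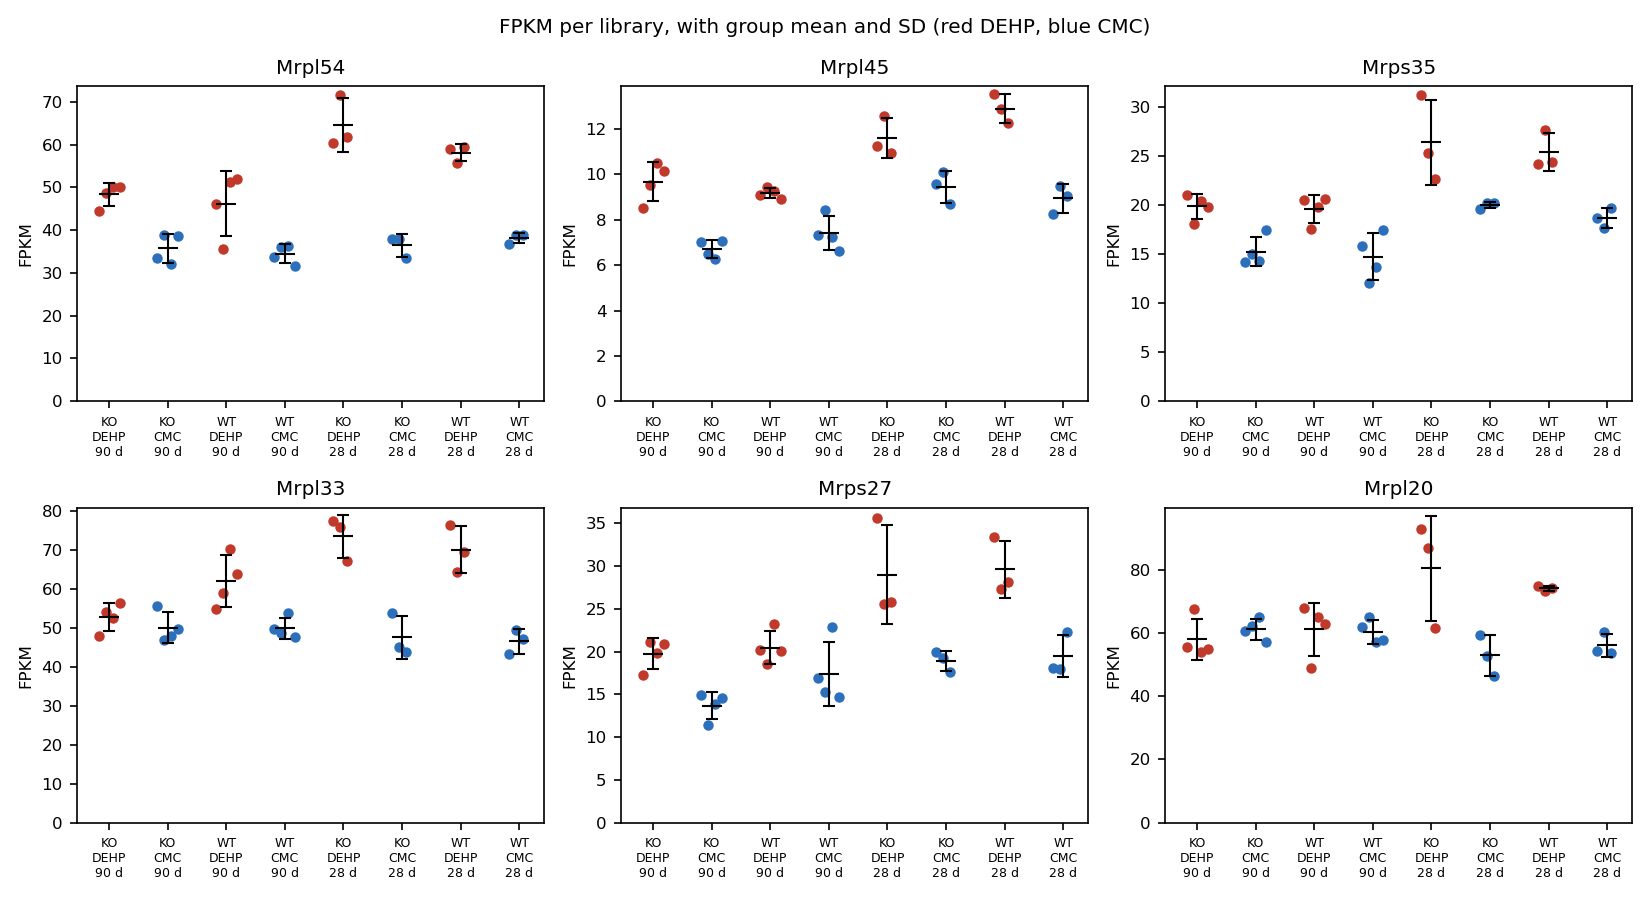
FPKM of 6 members in every library (points; red DEHP, blue CMC), with the mean and SD of each group (black), for the 4 groups of 90 days and then the 4 of 28 days. Mrpl54, Mrpl45 and Mrps35 were higher with DEHP in all 4 strata, while Mrpl20 was higher at 28 days, with means of 80.5 and 74.1 FPKM in KO and WT DEHP livers, and overlapped with CMC at 90 days.

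A further 7 members were called higher in 3 of the 4 DEHP comparisons, 13 in 2, 17 in 1 and 38 in none, where the counts over the 11213 tested genes were 254, 605, 764 and 9395. Of the 78 members, 56 had a positive log2 fold change in all 4. Mrpl9, a large-subunit protein with a bacterial counterpart, was the member that missed in KO livers at 28 days. There it stood at 26.0, 31.8 and 31.0 FPKM with DEHP and at 27.7, 26.1 and 29.9 FPKM with CMC, overlapping groups with a log2 difference of 0.08 ± 0.09 (SE; limma adjusted p = 0.60). At 90 days KO livers held 33.6, 31.5, 35.2 and 34.7 FPKM with DEHP and 22.8, 23.2, 25.03 and 26.6 FPKM with CMC, well apart, with a log2 difference of 0.45 ± 0.08 (limma adjusted p = 0.000866). It was also called in WT livers, at 0.34 ± 0.08 (adjusted p = 0.00867) at 90 days and 0.44 ± 0.09 (adjusted p = 0.000997) at 28 days.

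Mrps27, a mitochondria-specific small-subunit protein of the pentatricopeptide repeat family, which binds RNA, missed in WT livers at 90 days. There it stood at 20.2, 18.5, 23.2 and 20.0 FPKM with DEHP and at 16.9, 15.2, 22.8 and 14.7 FPKM with CMC, and WT CMC replicate 3 lay among the DEHP libraries. At 90 days the KO values were 17.2, 21.1, 19.9 and 20.9 FPKM with DEHP and 14.9, 11.4, 13.9 and 14.5 FPKM with CMC, without overlap, with a log2 change of 0.50 ± 0.13 (SE; adjusted p = 0.0191). At 28 days the fold changes were 0.57 ± 0.15 (adjusted p = 0.00514) in KO and 0.58 ± 0.15 (adjusted p = 0.00579) in WT livers. Without KO DEHP replicate 5, its highest library at 35.6 FPKM, the call in KO livers at 28 days was lost (adjusted p = 0.0564), and that in KO livers at 90 days was lost without any 1 of KO DEHP replicates 2, 3 and 4 and KO CMC replicate 2 (adjusted p 0.0502 to 0.0653).

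The other 5 members called in 3 comparisons all missed in KO livers at 90 days. They were Mrpl33, Mrpl30 and Mrpl13, large-subunit proteins with bacterial counterparts, Mrps17, a small-subunit protein with one, and Mrps36. Mrpl30 stood at 82.3, 83.4, 90.0 and 82.7 FPKM in KO DEHP and at 65.1, 78.2, 67.5 and 72.3 FPKM in KO CMC livers at 90 days, without overlap, at a log2 fold change of 0.26 (adjusted p = 0.0701). Mrpl13 was at 45.1 to 52.6 FPKM in KO DEHP and 39.9 to 49.8 FPKM in KO CMC livers at 90 days, and these overlapped. Mrpl33 was at 47.9 to 56.3 FPKM in KO DEHP and 46.8 to 55.7 FPKM in KO CMC livers at 90 days, also overlapping (log2 fold change 0.08, adjusted p = 0.727). Mrps36 rose by 0.37 in WT livers at 90 days (adjusted p = 0.0495), a call lost under upper quartile scaling (adjusted p = 0.117).

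**Figure D4:**
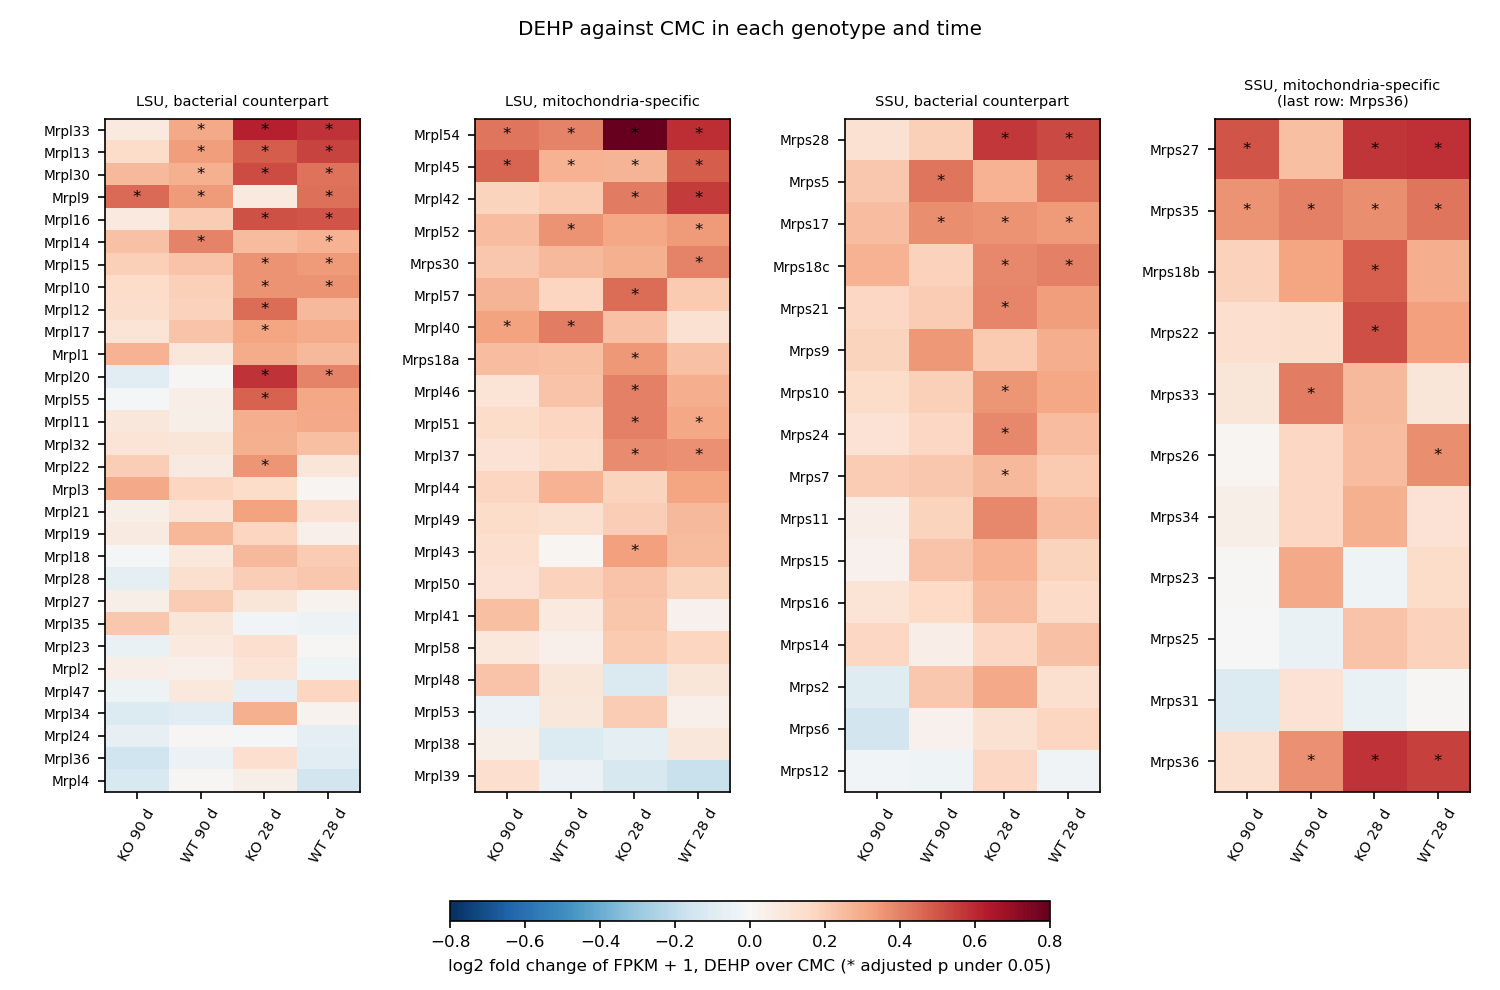
Log2 fold change of FPKM + 1, DEHP over CMC, of each member (rows, 1 panel per class, ordered by the mean of the 4 values, with Mrps36 last; LSU, large subunit; SSU, small subunit) in the 4 strata (columns), with red for higher and blue for lower in DEHP livers and a star for an adjusted p under 0.05. Red covers most rows in all 4 classes, starred cells over all panels number 6, 14, 32 and 24 from the left column to the right, and no blue cell is starred.

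The calls were then counted by structural class. Of the 30 large-subunit members with bacterial counterparts, 1 rose in KO and 5 in WT livers at 90 days, and 11 in KO and 9 in WT livers at 28 days. Of the 21 large-subunit members specific to mitochondria, 3 and 4 rose at 90 days and 9 and 7 at 28 days in KO and WT livers in that order. Of the 16 small-subunit members with bacterial counterparts, 0 and 2 rose at 90 days and 7 and 4 at 28 days, and of the 10 specific to mitochondria, 2 and 2 rose at 90 days and 4 and 3 at 28 days. In KO livers at 90 days, the classes with bacterial counterparts (3.33% of the large-subunit and 0% of the small-subunit members) were below the 4.47% of all tested genes called higher. Class medians of the log2 fold change at 28 days lay between 0.27 and 0.29 in KO and between 0.23 and 0.25 in WT livers. At the other end, Mrps12, a decoding-site protein of the small subunit, was at 44.3 to 51.8 FPKM in KO DEHP and 40.5 to 58.3 FPKM in KO CMC livers at 90 days, and its log2 fold change was between -0.03 and 0.17 in the 4 comparisons. Mrpl58, a peptidyl-tRNA hydrolase that frees stalled ribosomes, gave log2 fold changes of 0.04 to 0.21 with no call.

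In KO livers at 90 days the 6 called members were Mrpl45, Mrpl9, Mrpl54, Mrps27, Mrps35 and Mrpl40. Mrpl40, a mitochondria-specific large-subunit protein, stood at 14.7, 16.4, 17.3 and 16.1 FPKM with DEHP and at 11.9, 11.9, 14.5 and 12.6 FPKM with CMC, a narrow separation with a log2 difference of 0.32 ± 0.09 (SE; limma adjusted p = 0.0391) that missed the threshold without any 1 of KO DEHP replicates 2, 3 and 4 and KO CMC replicates 1, 2 and 4 (adjusted p 0.0734 to 0.140). Of the 4 KO DEHP libraries, 3 carried pancreas transcripts and the other was low in endothelial markers, so that leaving out the 5 libraries with pancreas transcripts leaves 1 KO DEHP library, replicate 4, which is then assumed to vary like the other groups. In that fit 2 members passed, Mrpl45 (log2 fold change 0.53) and Mrpl9 (0.49), while Mrpl54 (0.48), Mrps27 (0.58) and Mrps35 (0.36) did not. With the pancreas score as a covariate 1 member passed, Mrpl45 (0.55). The count was 3 without KO DEHP replicate 3 and 3 without KO DEHP replicate 4.

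In WT livers at 90 days the called members with the smallest adjusted p were Mrpl14, Mrpl40, Mrpl9, Mrpl54, Mrps5 and Mrps35. Mrpl14, a core large-subunit protein at the subunit interface, stood at 84.8, 71.6, 91.5 and 83.2 FPKM with DEHP and at 69.9, 59.0, 59.5 and 62.2 FPKM with CMC, with replicate 2 the lowest DEHP library and still above the CMC libraries, at a log2 difference of 0.39 ± 0.08 (SE; limma adjusted p = 0.00269). Mrps5, a small-subunit protein near the messenger RNA entry, stood at 21.7, 21.6, 27.3 and 22.4 FPKM with DEHP and at 18.9, 15.6, 15.6 and 17.98 FPKM with CMC, at 0.43 ± 0.11 (adjusted p = 0.0141), and missed the threshold without WT DEHP replicate 3, its highest library, or WT CMC replicate 2 or 3 (adjusted p 0.0528 to 0.0663). This was the one DEHP comparison in which equal replicate numbers deviated together. Replicate 4 of both groups carried pancreas transcripts, whose part in this was not tested. With the replicate number as a block, 13 members were called in the fit of all libraries and 0 in a fit of these 8 libraries. Without the block, that fit of 8 libraries also called 0 members, and it called 304 of the 11213 tested genes. Of the members, 22 had an unadjusted limma p under 0.05, and the smallest adjusted p was 0.0647. The share of all tested genes at that unadjusted p is not given, so nothing is read from the 22. In the fit of all libraries the count of members was 6 without the 5 libraries with pancreas transcripts. It was 9, 8 and 8 without WT CMC replicate 1, 2 or 3, and 5 without WT DEHP replicate 3 or replicate 4.

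In KO livers at 28 days the leading members were Mrpl54, Mrpl33, Mrpl30, Mrpl16, Mrpl13 and Mrpl20. Mrpl33, a small large-subunit protein, stood at 77.3, 75.8 and 67.1 FPKM with DEHP and at 53.9, 44.95 and 43.6 FPKM with CMC, far apart, at a log2 difference of 0.62 ± 0.10 (SE; limma adjusted p = 5.02e-05). Mrpl16, whose bacterial counterpart contacts tRNA on the large subunit, stood at 40.1, 39.1 and 33.2 FPKM with DEHP and at 29.1, 25.03 and 24.1 FPKM with CMC, at 0.51 ± 0.10 (adjusted p = 0.00043). Mrps28 led the small-subunit members with bacterial counterparts, at 45.6, 48.1 and 39.5 FPKM with DEHP and 28.2, 33.4 and 27.3 FPKM with CMC and a log2 difference of 0.57 ± 0.13 (limma adjusted p = 0.00179). Mrpl12 was called at 0.45 ± 0.11 (adjusted p = 0.00527), with 162, 157 and 138 FPKM in DEHP and 129, 93.9 and 114 FPKM in CMC livers. The count of 32 fell to 15 without KO DEHP replicate 5, to 21 without KO DEHP replicate 6, to 18 without KO CMC replicate 6 and to 17 without KO CMC replicate 7.

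In WT livers at 28 days the leading members were Mrpl33, Mrpl13, Mrpl45, Mrpl54, Mrpl16 and Mrpl42. Mrpl33 stood at 76.3, 64.2 and 69.5 FPKM with DEHP and at 43.2, 49.4 and 47.0 FPKM with CMC, without overlap, at a log2 difference of 0.58 ± 0.10 (SE; limma adjusted p = 0.000168). Mrpl13 stood at 64.2, 65.1 and 69.7 FPKM with DEHP and at 46.9, 46.5 and 42.4 FPKM with CMC, at 0.54 ± 0.10 (adjusted p = 0.00029). Mrpl42, which is specific to mitochondria, stood at 74.3, 59.8 and 58.8 FPKM with DEHP and at 42.0, 43.9 and 43.5 FPKM with CMC, at 0.56 ± 0.11 (adjusted p = 0.000748). The count of 24 was 12 in a fit of these 6 libraries alone, 13 without the 3 libraries low in endothelial markers, 14 without WT DEHP replicate 6 and 15 without WT CMC replicate 6.

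Beside the members, cytosolic ribosomal protein genes and the nuclear genes of oxidative phosphorylation, whose partners the mitoribosome makes, were counted in the same fits. Of 78 nuclear oxidative phosphorylation subunits, 17 rose in KO and 35 in WT livers at 90 days, and 56 in KO and 52 in WT livers at 28 days. Of 80 cytosolic ribosomal proteins, 4 rose in KO and 17 in WT livers at 90 days, and 38 in KO and 8 in WT livers at 28 days. None of either family fell. With upper quartile scaling, 3 oxidative phosphorylation subunits rose in KO and 28 in WT livers at 90 days, and 46 in KO and 43 in WT livers at 28 days. For the cytosolic ribosome these counts were 0 in KO and 11 in WT livers at 90 days, and 30 in KO and 4 in WT livers at 28 days. The median log2 fold changes were 0.18, 0.25, 0.38 and 0.38 for oxidative phosphorylation and 0.18, 0.21, 0.34 and 0.20 for the cytosolic ribosome, in the order KO and WT at 90 days, then KO and WT at 28 days, against 0.12, 0.18, 0.28 and 0.24 for the members. No test of a difference between these families was made. The subunits made by the mitoribosome itself were not analysed here.

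Other proteins of the mitochondrial translation system were counted from lists chosen by function, to be read against the 4.47% (KO) and 4.96% (WT) of all tested genes called higher at 90 days and the 11.6% (KO) and 10.3% (WT) at 28 days. Of 5 tested mitoribosome proteins with other symbols, 1 rose in KO and 1 in WT livers at 90 days and 2 in each at 28 days. Ptcd3, a small-subunit protein of the pentatricopeptide repeat family, rose in all 4, with log2 fold changes of 0.41 in KO and 0.42 in WT livers at 90 days and 0.50 in KO and 0.60 in WT livers at 28 days (largest adjusted p 0.00642). Dap3, a GTP-binding small-subunit protein, rose at 28 days by 0.37 in KO and 0.36 in WT livers. Of 16 tested translation factors, 0 rose in KO and 1 in WT livers at 90 days, and 6 in KO and 5 in WT livers at 28 days. The elongation factors Gfm1 and Tufm, which move the ribosome along and deliver aminoacyl-tRNA, led them at 28 days. Gfm1 rose by 0.72 in KO (adjusted p = 4.76e-05) and 0.67 in WT livers (adjusted p = 0.000153), and Tufm by 0.54 in KO (adjusted p = 0.000759) and 0.62 in WT livers (adjusted p = 0.000244). At 90 days the 1 called factor was Oxa1l, which inserts new proteins into the inner membrane, at 0.41 in WT livers (adjusted p = 0.00557).

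Of 27 tested assembly and ribosomal RNA factors, 3 rose in KO and 6 in WT livers at 90 days, and 5 in KO and 3 in WT livers at 28 days, while Mrm1, a ribosomal RNA methyltransferase, fell in KO livers at 28 days (log2 fold change -0.38, adjusted p = 0.0308). Rpusd4, a pseudouridine synthase, had the smallest adjusted p of the list at 90 days, with 0.56 in KO (adjusted p = 9.85e-05) and 0.35 in WT livers (adjusted p = 0.00717). Malsu1, which joins late large-subunit assembly, had it in KO livers at 28 days, with 0.53 (adjusted p = 0.00143). For the synthetases and the transcription genes that follow, the counts were close to or below what the shares of all tested genes give, and nothing is read from them. Of 17 tested mitochondrial aminoacyl-tRNA synthetases, 1 rose in KO and 0 in WT livers at 90 days, and 2 in KO and 3 in WT livers at 28 days. Iars2, the isoleucine enzyme, rose by 0.40 in KO livers at 90 days and 0.45 in KO and 0.56 in WT livers at 28 days. Of 16 tested genes of mitochondrial transcription and its nuclear regulators, 0 rose in KO and 1 in WT livers at 90 days, and 2 in KO and 1 in WT livers at 28 days. Tfb2m, which helps to open mitochondrial promoters, was at 0.43 in KO (adjusted p = 0.00573) and 0.44 in WT livers (adjusted p = 0.0064) at 28 days.

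The second question was whether loss of macrophage Pparg altered the members, and no member was called in any of the 4 KO against WT comparisons or in either test of whether the DEHP response differed by genotype. The numbers at an unadjusted p under 0.05 were 6 with DEHP and 6 with CMC at 90 days and 6 with DEHP and 0 with CMC at 28 days, and 1 in each interaction, of 78. The share of all tested genes at that unadjusted p is not given, so nothing is read from these numbers. By adjusted p, all genes called came to 0.508% (DEHP, 90 days), 0.00892% (CMC, 90 days), 0.0178% (DEHP, 28 days) and 0.0446% (CMC, 28 days). For the interactions they came to 0.0% and 0.0178% at 90 and 28 days. The smallest adjusted p was 0.186, for Mrpl9 with DEHP at 90 days, at 33.6, 31.5, 35.2 and 34.7 FPKM in KO and 28.8, 25.5, 29.6 and 29.8 FPKM in WT livers, groups that did not overlap, at a log2 difference of 0.24. At 28 days with DEHP the same gene stood at 26.0, 31.8 and 31.0 FPKM in KO and 33.6, 33.6 and 37.1 FPKM in WT livers, below and without overlap, at -0.23 (adjusted p = 0.762). The 2 directions stood in the same agent at different times, and neither passed. Mrps9, a small-subunit protein with a bacterial counterpart, had the smallest p with CMC at 90 days, at 8.92, 10.8, 10.3 and 11.4 FPKM in KO and 8.96, 6.27, 6.76 and 10.5 FPKM in WT livers (log2 difference 0.34, adjusted p = 0.583). The median half-width of the 95% interval of a member's KO minus WT log2 difference was 0.21 at 90 days and 0.24 at 28 days, and 0.29 and 0.34 for the interactions, so differences within such bounds were not detectable with these libraries. These intervals are not adjusted for the number of genes tested. Larger differences could therefore also go uncalled, as the 0.34 of Mrps9 did.

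**Figure D5:**
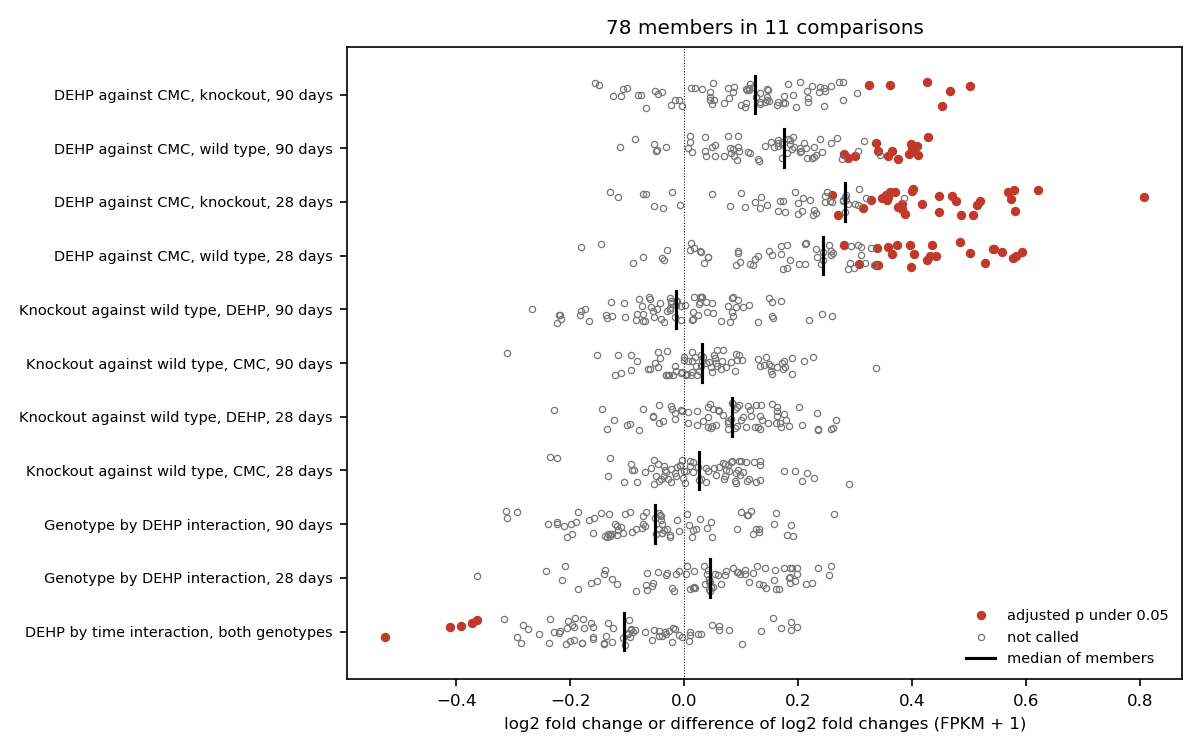
Log2 fold change, or difference of log2 fold changes for the interactions, of each of the 78 members (points, FPKM + 1 scale) in 11 comparisons (rows), with members past an adjusted p of 0.05 in red and the median of the members as a black line. Red points lie on the positive side in the 4 DEHP rows (6, 14, 32 and 24), on the negative side in the bottom row (5), and in none of the 6 rows with genotype.

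The third question was whether the DEHP difference changed with time, taken as the mean over both genotypes of the difference at 90 days minus that at 28 days. It was smaller at 90 days for 5 members (log2 difference below 0, adjusted p under 0.05) and larger for 0, where 4.82% and 4.99% of all tested genes were called in those directions. The member median was -0.11 against 0.02 for all genes, and 62 of 78 values were negative. The 5 were Mrpl33 (-0.41 ± 0.09, SE; adjusted p = 0.00491), Mrpl20 (-0.52 ± 0.12; adjusted p = 0.00511), Mrpl16 (-0.36 ± 0.09; adjusted p = 0.0108), Mrpl55 (-0.37 ± 0.11; adjusted p = 0.0333) and Mrps28 (-0.39 ± 0.12; adjusted p = 0.0357). As 5 of 78 is 6.41%, the members' share was near that of all tested genes. Of 8 hepatocyte markers, 5 were called in the opposite direction in this contrast, as was 1 of 3 tested adipocyte markers, and their part was not tested.

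Mrpl20, a large-subunit protein that binds ribosomal RNA, shows the pattern in its levels. At 90 days it stood at 55.7, 67.5, 53.9 and 54.8 FPKM in KO DEHP and 60.7, 62.1, 65.0 and 57.0 FPKM in KO CMC livers. It stood at 68.0, 49.0, 65.0 and 62.9 FPKM in WT DEHP and 61.8, 65.1, 57.1 and 57.7 FPKM in WT CMC livers. Both pairs overlapped. At 28 days it stood at 93.0, 87.0 and 61.6 FPKM in KO DEHP and 59.5, 52.8 and 46.4 FPKM in KO CMC livers. It stood at 74.9, 73.3 and 74.2 FPKM in WT DEHP and 54.2, 60.3 and 53.8 FPKM in WT CMC livers. Neither pair overlapped, although KO DEHP replicate 7 came near to the CMC libraries. Mrpl55 stood at 26.4, 21.8 and 18.03 FPKM in KO DEHP and 16.6, 15.9 and 14.0 FPKM in KO CMC livers at 28 days, and overlapped in WT livers at that time. By contrast Mrpl45 and Mrps35 had time differences of 0.00 and -0.02 on the log2 scale (adjusted p = 0.987 and 0.958).

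The elongation factors Gfm1 and Tufm, with log2 differences of -0.48 and -0.47, and Tsfm, the exchange factor of Tufm, with -0.43, were called in the same direction, as was Lars2, the leucine enzyme of mitochondrial tRNA charging, with -0.49. Without the 5 libraries with pancreas transcripts, which leaves 1 KO DEHP library at 90 days, 1 of the 78 members was called, Mrpl20, and the values of Mrpl33 (-0.38), Mrpl16 (-0.33), Mrpl55 (-0.30) and Mrps28 (-0.34) missed the threshold. With the pancreas score as a covariate 3 members were called. The count was also 3 without any 1 of KO DEHP 90 days replicate 2, KO DEHP 28 days replicate 5 or 6, WT DEHP 28 days replicate 5, KO CMC 28 days replicate 7, WT CMC 90 days replicate 1 or WT CMC 28 days replicate 6. The times also differ in the sex pattern of the transcripts given above, so time cannot be told apart from sex.

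Averaged over genotype and agent, all 78 members had lower FPKM at 90 than at 28 days and 58 were called lower, where 31.0% of all tested genes were called lower and 8.1% higher. By sex-linked transcripts the libraries show the male pattern at 90 days and the female pattern at 28 days. Time therefore cannot be told apart from sex in this contrast. The median member log2 difference was -0.20 and that of all genes -0.09. Mrps27 differed most, by -0.41 ± 0.07 (SE; adjusted p = 3.2e-05), and Mrpl45 had the smallest adjusted p, at -0.34 ± 0.04 (adjusted p = 4.19e-07). Upper quartile scaling moved the median of all genes to 0.01 and that of the members to -0.07, and left 21 members lower and 0 higher, where 16.6% of all tested genes were lower. Under it Mrpl45 (adjusted p = 0.0005), Mrps35 (adjusted p = 0.00034), Mrps27 (adjusted p = 0.0024) and Mrpl13 (adjusted p = 0.0031) were still called, and Mrpl54 (adjusted p = 0.11) was not. The composition of the libraries differed by time too: the major urinary protein genes took 9.32% to 29.9% of summed FPKM at 90 days and 0.461% to 5.06% at 28 days, and its part in the difference was not tested. Of the cell type markers, 8 of 12 for Kupffer cells and macrophages and 2 of 9 for stellate cells were lower at 90 days, and 17 of 17 for exocrine pancreas, 3 of 3 tested for adipocytes and 1 of 5 for erythroid cells were higher. Hepatocyte markers were called 4 higher and 2 lower, of 8, and the part of these markers was not tested either.

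Within groups the members varied together to a modest degree. After the group means were removed, the Pearson correlation between 2 members over the 28 libraries had a median of 0.19 over 3003 pairs, from -0.63 to 0.73, and 78.3% of pairs were positive. Residuals of 1 library share its depth and composition, so this is a description only. The highest pair was Mrpl18 with Mrpl1, at 0.73, followed by Mrps34 with Mrps2, at 0.73, and Mrps34 with Mrpl36, at 0.72. The members most like Mrpl54 were Mrpl17, Mrpl13 and Mrpl27, at 0.55, 0.54 and 0.53. Those most like Mrps35 were Mrps18c, Mrps10 and Mrps9, at 0.63, 0.58 and 0.55, all of the small subunit. Those most like Mrpl45 were Mrpl39, Mrpl15 and Mrpl52, at 0.51, 0.47 and 0.44, all of the large subunit. Sorting by subunit was not general. The members most like Mrps27, of the small subunit, were Mrpl34, Mrpl33 and Mrpl10, at 0.67, 0.64 and 0.62.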

How the data were processed

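Gene expression was measured by RNA sequencing of 28 mouse liver libraries made with an Illumina TruSeq kit from total RNA, per the labels' protocols. The deposited table holds FPKM per gene and library, which the authors computed with Cuffdiff on mouse genome mm10 (GRCm38), per the submitters' processing notes. The aligner, versions and strand setting are not given in the sources used here. FPKM are not counts, so depth was only estimated from the steps between low values and no counting interval is given.

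The 11213 genes that reached 1 FPKM in 3 or more libraries were tested on log2(FPKM + 1) with limma 3.58.1 in R 4.3.3 (trended empirical Bayes, 8 group means, 20 residual degrees of freedom), with Benjamini-Hochberg adjustment within each comparison and a threshold of 0.05. Fold changes on this scale understate changes of low genes. Tables and figures were made in Python 3.11.15, and the procedure was tested on simulated data. Groups came from the labels' genotype, agent and time. The members and gene lists were chosen with earlier results of these data known. Genes named were the 6 called members with the smallest adjusted p in each comparison and direction, or, with fewer than 3 called, these and the 5 smallest p, the called member with the largest change in each class, the 3 highest and 3 lowest levels, Mrpl12, Mrps12 and Mrpl58, called members of the other lists, and the 3 members most correlated with a leading one. Others, such as members called in 3 comparisons or shown by promoter or gene neighbour, were chosen after their values were seen.

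Replicate numbers recur across groups. Residuals of same-numbered libraries correlated above 0.1 for every pair only in DEHP against CMC, WT, 90 days (0.262, 0.252, 0.22 and 0.665). The numbers were taken as pairs there only in the alternative fits with a replicate block. The main fit and the p-values printed from it use no pairing. Replicate 4 of both groups carried pancreas transcripts. The exocrine pancreas markers summed to 26266 FPKM in WT DEHP replicate 4 and 16204 FPKM in WT CMC replicate 4. They summed to 44.6 FPKM or less in the other libraries of these groups. Their part in the correlations was not tested, and the labels do not state a pairing. Alternatives were another pseudocount (0.1), no filter, a filter at 5 FPKM, upper quartile scaling, quantile normalization, the replicate block, a fit of the compared groups and leaving out each library. Leaving out the libraries with pancreas transcripts or few endothelial transcripts, the pancreas covariate and the block in the 8-library fit were added after seeing the data.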

Additional observations from a re-analysis of the deposited data

Results flagged for a closer look

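A library far from the others of its group was found in 14 of 168 groups of 4 libraries examined (8.33%), where chance gives about 1 in 20. WT CMC replicate 3 at 90 days was low for Mrpl30 (63.52 FPKM), Mrpl52 (86.61 FPKM) and Mrps33 (12.66 FPKM). WT DEHP replicate 3 at 90 days was high for Mrpl58 (33.5 FPKM) and Mrps5 (27.32 FPKM) and low for Mrps23 (14.19 FPKM). WT DEHP replicate 2 at 90 days was low for Mrpl12 (95.66 FPKM, the others at 117.63 to 120.36 FPKM). KO DEHP replicate 2 at 90 days was high for Mrpl20 (67.45 FPKM) and low for Mrpl28 (26.89 FPKM), and KO DEHP replicate 3 was high for Mrpl30 (89.98 FPKM). KO CMC replicate 1 at 90 days was low for Mrpl28 (30.83 FPKM), and KO CMC replicate 2 was high for Mrps36 (14.15 FPKM). Mrps6 was low in WT DEHP replicate 4 (7.12 FPKM, the others at 11.05 to 11.42 FPKM) and high in WT CMC replicate 1 (12.1 FPKM, the others at 8.94 to 9.12 FPKM) at 90 days. WT DEHP replicate 4 is 1 of the libraries with pancreas transcripts, whose part in this value was not tested.

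The DEHP difference was smaller at 90 than at 28 days, by a test of the difference itself, for Mrpl33 (-0.41), Mrpl20 (-0.52), Mrpl16 (-0.36), Mrpl55 (-0.37) and Mrps28 (-0.39), all as differences of log2 fold changes. These were 5 of 78 members, where 4.82% of all tested genes were called in that direction. The members' share was near that of all tested genes. The libraries of the 2 times also differed in sex-linked transcripts, with the female pattern at 28 days and the male pattern at 90 days. Time cannot be told apart from sex here.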

How the results depend on the processing

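Counts are members called. Higher under DEHP in WT livers at 28 days, 24 became 12 in the fit of the compared groups and 13 without the 3 libraries low in endothelial markers. In WT livers at 90 days, 14 became 9 with upper quartile scaling, 0 in the fit of the compared groups, 6 without the 5 libraries with pancreas transcripts and 0 with the replicate block in that fit of 2 groups. In KO livers at 90 days, 6 became 2 without the 5 libraries and 1 with the pancreas covariate, where leaving out the 5 leaves 1 KO DEHP library of 90 days, assumed to vary like the other groups. For the change of the DEHP difference with time, 5 became 1 and 3 under those settings, and for 90 against 28 days, 58 became 21 with upper quartile scaling and 22 with quantile normalization. The cause was not tested. Settings on pancreas or endothelial transcripts and the block in 2 groups were chosen after seeing the data.

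Leaving out each library gave 3 to 7 (KO, 90 days), 5 to 13 (WT, 90 days), 15 to 36 (KO, 28 days), 14 to 21 (WT, 28 days), 3 to 7 (DEHP by time), 55 to 60 (90 against 28 days) and 0 in all genotype comparisons. The replicate block in the fit of all libraries gives each replicate number a shift shared by all groups. With it the counts were 5 (KO, 90 days), 13 (WT, 90 days), 29 (KO, 28 days), 25 (WT, 28 days), 5 (DEHP by time) and 0 for genotype. The contrast of 90 against 28 days could not be fitted with this block. None of the results reversed. Depth is known only as an estimate, and with 3 or 4 libraries a group small differences were not detectable.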
